A study of Homo sapiens with 6 samples.

Results

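AP-1 is a family of paired transcription factors, and 10 genes of this family and of the immediate early response were followed in OVCAR8 cells, a line from high-grade serous ovarian cancer. They were chosen by a list of names that set no threshold on measured values. The set holds the FOS genes FOS, FOSB, FOSL1 and FOSL2, the JUN genes JUN, JUNB and JUND, the related factors ATF3 and MAFF, and the zinc finger factor EGR1. The deposited table listed all 10 among its 14930 genes, and 7 of them passed the filter on low values that left 9671 genes for testing. RNA sequencing had been done in 3 groups of 2 samples, each after 72 h, to find the genes that respond when EZH2, the catalytic subunit of the Polycomb repressive complex 2, is reduced in 2 different ways.

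Ctrl samples had received DMSO, the solvent. DZNep samples had received 3-deazaneplanocin A, an inhibitor of S-adenosylhomocysteine hydrolase that lowers EZH2 protein, at a dose given as 5 μM in the study's methods and as 5 mM in the sample labels. The shEZH2 samples were doxycycline-induced, the inducer being given as 1 μg/mL in the methods and as 1 mg/mL in the labels, and carried a single inducible short hairpin against EZH2 in a puromycin-selected lentiviral vector. The sources used here do not say whether the Ctrl samples were parental or hairpin-carrying cells. No sample with doxycycline alone was analysed here, so doxycycline and silencing cannot be told apart. Nothing in the labels says that replicates came from separate cultures, so p-values measure only the spread between these samples, which may be technical.

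Proteins of the FOS and JUN groups carry a basic region that touches DNA and a leucine zipper through which they pair. JUN proteins can pair with each other or with FOS proteins, whereas FOS proteins need a JUN partner. FOS, JUNB, EGR1, ATF3 and MAFF belong to the immediate early genes, which growth factors and stress switch on within minutes through MAP kinases and factors such as serum response factor, without new protein synthesis. FOSL1 and FOSL2 respond later and for longer, and JUND is expressed more steadily. In ovarian cancer cells, as in other carcinomas, AP-1 is known for its part in growth, invasion and inflammatory gene expression.

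The members moved in different directions. JUNB and MAFF were higher after DZNep and after EZH2 silencing, FOS was lower in both, and FOSL2 was higher after DZNep. FOSL1, JUN and JUND did not pass in any comparison of the main fit, though each passed under some alternative fits. FOSB, EGR1 and ATF3 were too low to be tested in the main analysis. FOS met the filter on low values only through its Ctrl samples. A gene passed when the Benjamini-Hochberg adjusted p of limma, over all 9671 genes, was under 0.05.

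The stretches of DNA just before FOS and EGR1, of which FOS fell and EGR1 had its lowest values after DZNep, and before JUNB and MAFF, which rose, are shown because these members of the immediate early response differed in direction. Each line holds the 250 bases before a RefSeq transcript start, read 5′ to 3′ on the strand of the gene in GRCh38.p14, with any matched motif in capitals. They lie at chr14:75278578-75278827 on the plus strand for FOS, chr5:138465229-138465478 on the plus strand for EGR1, chr19:12791236-12791485 on the plus strand for JUNB and chr22:38201744-38201993 on the plus strand for the first of 2 MAFF starts.
FOS: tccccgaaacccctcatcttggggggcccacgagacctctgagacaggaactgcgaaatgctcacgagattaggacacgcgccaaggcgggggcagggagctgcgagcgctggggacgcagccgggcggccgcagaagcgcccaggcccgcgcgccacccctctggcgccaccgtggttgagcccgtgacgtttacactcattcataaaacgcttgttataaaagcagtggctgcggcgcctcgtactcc
EGR1: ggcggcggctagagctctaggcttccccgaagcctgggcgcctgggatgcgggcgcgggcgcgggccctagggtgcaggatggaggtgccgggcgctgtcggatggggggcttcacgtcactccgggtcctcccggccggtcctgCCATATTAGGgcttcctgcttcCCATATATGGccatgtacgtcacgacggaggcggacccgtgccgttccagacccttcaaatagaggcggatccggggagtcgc
JUNB: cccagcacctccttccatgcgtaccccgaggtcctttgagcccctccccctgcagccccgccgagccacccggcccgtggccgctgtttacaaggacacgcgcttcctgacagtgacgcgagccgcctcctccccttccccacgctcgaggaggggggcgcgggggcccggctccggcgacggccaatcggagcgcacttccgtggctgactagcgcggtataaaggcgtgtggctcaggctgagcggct
MAFF: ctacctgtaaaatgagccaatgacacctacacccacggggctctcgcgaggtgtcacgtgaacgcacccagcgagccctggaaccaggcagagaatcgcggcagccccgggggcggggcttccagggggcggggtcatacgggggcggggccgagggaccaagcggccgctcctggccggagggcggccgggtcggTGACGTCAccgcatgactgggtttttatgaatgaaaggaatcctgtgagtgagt
Both capitalised stretches of EGR1 are CArG boxes, the sequence that serum response factor recognises, and the one of MAFF is a cyclic AMP response element, the sequence bound by CREB and ATF proteins.

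A motif search covered the 9 members with a RefSeq promoter, FOSL1 having no entry, on both strands. The motifs were the AP-1 site (TGACTCA or TGAGTCA), the cyclic AMP response element (TGACGTCA), the CArG box and the EGR site (GCGTGGGCG or GCGGGGGCG), none of which contains another. EGR1 held CArG boxes from -105 to -96 and from -83 to -74 relative to its start. The cyclic AMP response element was found in MAFF from -54 to -47 and in JUND from -200 to -193. FOS, FOSB, FOSL2, JUN, JUNB and ATF3 held none of these letters in the window, which says nothing of sites elsewhere. Among all 35116 RefSeq promoters of the same length, 4.2% held the AP-1 site, 1.65% the cyclic AMP response element, 1.16% the CArG box and 5.37% the EGR site. A match is a description of the sequence and was not measured as bound here.

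EZH2, the targeted gene, had values of 36 and 42 in Ctrl, 26 and 26 after DZNep and 18 and 18 in shEZH2. Both treated groups therefore lay below Ctrl, with log2 fold changes of -0.64 ± 0.18 (SE, adjusted p = 0.0246) and -1.12 ± 0.18 (SE, adjusted p = 0.0168). Values were rounded to whole numbers and scaled to a near-common total in each sample, with totals from 999956 to 1000068. Whether they were also divided by transcript length is not given in the sources used here, so levels are compared between samples and never between genes. The depth of each library is not known. Fold changes are on the log2(value + 1) scale after TMM scaling, which understates the change of low genes. Replicates spread more in Ctrl and DZNep than in shEZH2, the SD of their log2 differences over tested genes being 0.428, 0.446 and 0.141. Among carcinoma markers, KRT7, KRT8 and KRT18 were listed at 350 or more in every sample, PAX8 at 10 to 19, EPCAM at 5 to 12 and WT1 at 1 to 2, while MUC16 and KRT19 were not used here. The summed value of these 6 carcinoma markers was 2427 to 3036 in Ctrl, 7364 to 8540 after DZNep and 3455 to 3456 in shEZH2. Its higher level after DZNep lay in KRT8, at 1021 and 816 in Ctrl against 3540 and 3046, and in KRT18, at 1392 and 1080 against 4398 and 3793. Of the fibroblast markers, COL1A1 and PDGFRB were listed, and their summed value was 25 to 27 in Ctrl, 51 to 68 after DZNep and 45 to 53 in shEZH2. PDGFRB alone was higher, at 12 and 11 in Ctrl, 56 and 42 after DZNep and 37 and 34 in shEZH2, while COL1A1 was at 13 and 16, 12 and 9, and 16 and 11. The endothelial marker VWF was at 0 to 2. Summed leukocyte markers, of which CD68 and CD14 were listed, were 66 to 71 in Ctrl, 17 to 19 after DZNep and 30 to 33 in shEZH2. Nearly all of this sum was CD68, at 70 and 65, 18 and 15, and 32 and 28 in the same order, while CD14 was at 1 to 2. All samples were of the OVCAR8 line. The part of these markers in the results was not tested, and in bulk samples fewer cells of a type and less RNA per cell cannot be told apart.

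**Figure D1:**
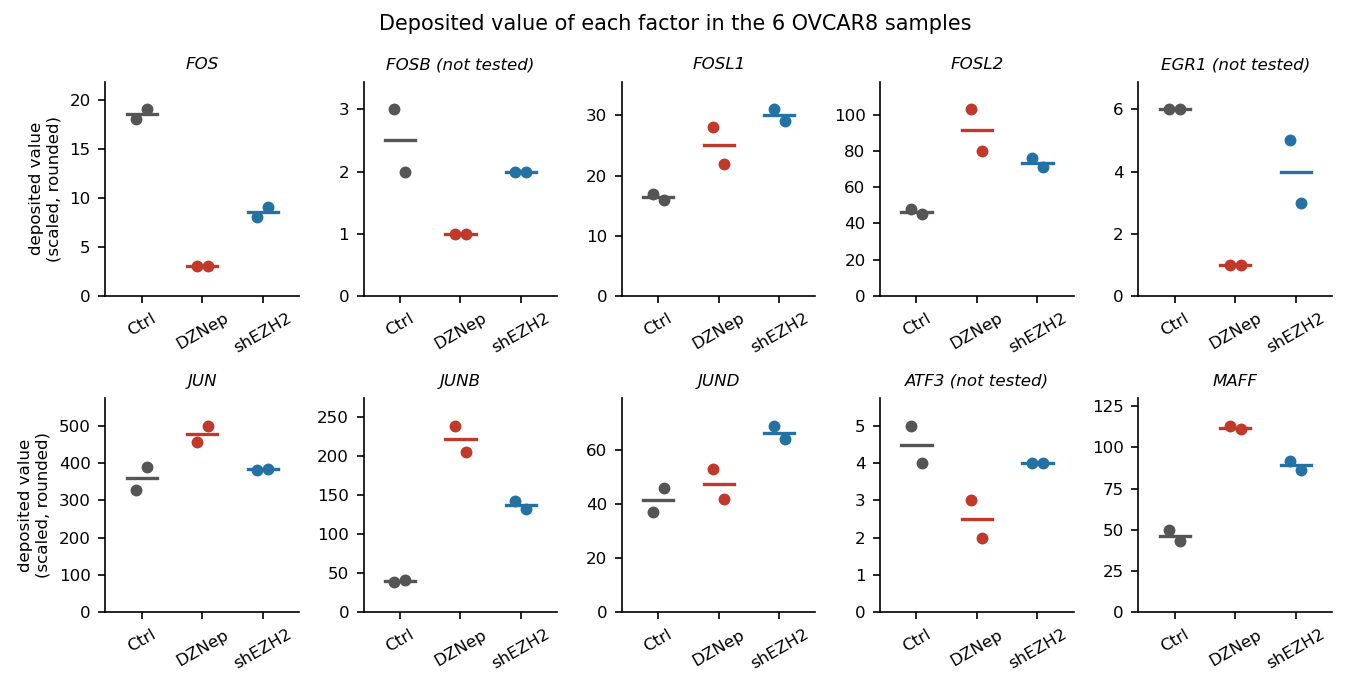
Deposited value (scaled and rounded) of each of the 10 factors in the Ctrl, DZNep and shEZH2 samples, 1 point per sample with the group mean as a bar, on linear axes that start at 0 and differ between panels. The panels show JUNB at 39 and 41 in Ctrl against 239 and 205 after DZNep, and FOS at 18 and 19 against 3 and 3.

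FOS, the founding member of the family and a short-lived partner of JUN proteins, lies at chr14:75278826-75282230 on the plus strand (GRCh38, GENCODE v44) and has 4 exons. FOS was at 18 and 19 in the Ctrl samples, 3 and 3 in the DZNep samples and 8 and 9 in the shEZH2 samples. Thus no treated sample reached either Ctrl sample, and the DZNep samples lay below the shEZH2 samples. FOS fell by 2.36 on the log2 scale after DZNep (SE 0.20, 95% interval -2.82 to -1.89, adjusted p = 0.000169). This is 0.196 times Ctrl on the value + 1 scale, and the ratio of group means was 0.154. Among the 9671 tested genes the fall of FOS after DZNep was the change with rank 139 counted from the lowest. In shEZH2 FOS fell by 1.09 (SE 0.20, interval -1.55 to -0.63, adjusted p = 0.0216), to 0.471 times Ctrl on the value + 1 scale, with a ratio of group means of 0.444. The direct comparison gave a value 1.27 higher in shEZH2 than after DZNep (SE 0.20, interval 0.81 to 1.73, adjusted p = 0.0123). The value of 3 after DZNep is rounded, and with rounding error alone the log2 ratio of group means lies between -3.00 and -2.44. FOS met the filter through its Ctrl values only, and every DZNep and shEZH2 value was below the minimum of 10. The direct comparison therefore rests on low values, where rounding matters. With rounding error alone, its log2 ratio of group means lies between 1.22 and 1.88. The fall in shEZH2 did not pass without Ctrl replicate 2 (adjusted p = 0.0501), without shEZH2 replicate 1 (adjusted p = 0.278) or without shEZH2 replicate 2 (adjusted p = 0.175), with log2 values of -1.13, -0.98 and -1.19. The direct difference likewise did not pass without shEZH2 replicate 1 (1.37, adjusted p = 0.100) or replicate 2 (1.16, adjusted p = 0.179).

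FOSB, a close paralog of FOS at chr19:45467995-45475179, was near the lowest value that rounding leaves. Its values were 3 and 2 in Ctrl, 1 and 1 after DZNep and 2 and 2 in shEZH2. The DZNep samples were below both Ctrl samples, and the shEZH2 samples overlapped them. On the opposite strand FOSB overlaps ERCC1, a DNA repair gene listed at 84 to 118, and the strand setting of the counting is not given in the sources used here, so the FOSB values are uncertain.

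The FOS-related antigens FOSL1 (chr11:65892049-65900573, minus strand) and FOSL2 (chr2:28392448-28417317, plus strand) lack the strong activation domain of FOS and replace it in AP-1 pairs at later times. FOSL2 was at 48 and 45 in Ctrl, 103 and 80 after DZNep and 76 and 71 in shEZH2. FOSL2 rose after DZNep by a log2 fold change of 0.87 ± 0.23 (SE, adjusted p = 0.0182), or 1.83-fold. Both shEZH2 samples were also above both Ctrl samples, but the difference of 0.60 ± 0.23 did not pass (adjusted p = 0.138). The call after DZNep rested on single samples, with values of 0.74 without Ctrl replicate 2 (adjusted p = 0.0646) and 0.56 without DZNep replicate 1 (adjusted p = 0.0716). In shEZH2 the difference passed without DZNep replicate 1 (adjusted p = 0.0494) or replicate 2 (adjusted p = 0.0481). FOSL2 overlaps the antisense transcript FOSL2-AS1, not used here.

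FOSL1 was at 17 and 16 in Ctrl, 28 and 22 after DZNep and 31 and 29 in shEZH2. All 4 treated samples were above both Ctrl samples. The log2 differences were 0.48 ± 0.24 after DZNep (SE, 95% interval -0.06 to 1.03, adjusted p = 0.134) and 0.78 ± 0.24 in shEZH2 (interval 0.23 to 1.32, adjusted p = 0.0776), and neither passed. The first was 0.78 and passed without DZNep replicate 2 (adjusted p = 0.0226), and was 0.19 without DZNep replicate 1 (adjusted p = 0.541). The second passed without DZNep replicate 1 (adjusted p = 0.0299) or replicate 2 (adjusted p = 0.0293). Between shEZH2 and DZNep the difference was 0.29 ± 0.24 (adjusted p = 0.471), and no order can be given for the treated groups. With same-numbered replicates fitted as pairs over all samples, both FOSL1 differences from Ctrl passed (adjusted p = 0.0438 after DZNep and 0.00391 in shEZH2). That fit called 55.6% and 28.1% of all tested genes in these comparisons.

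JUNB, a JUN protein that activates fewer promoters on its own than JUN and can restrain it, showed the largest rise among the tested members. The gene lies at chr19:12791486-12793315 on the plus strand and consists of 1 exon. JUNB was at 39 and 41 in Ctrl, 239 and 205 after DZNep and 143 and 132 in shEZH2. The 3 groups did not overlap, with shEZH2 between Ctrl and DZNep. JUNB rose after DZNep by a log2 fold change of 2.36 ± 0.20 (SE, 95% interval 1.91 to 2.81, adjusted p = 0.000158), or 5.13-fold. It rose in shEZH2 by 1.71 ± 0.20 (SE, interval 1.25 to 2.16, adjusted p = 0.00608), or 3.26-fold. Counted from the highest change, JUNB had rank 66 of 9671 genes after DZNep and rank 12 in shEZH2. The difference between the treated groups, -0.65 ± 0.20 (shEZH2 minus DZNep, adjusted p = 0.0744), did not pass, and it passed without DZNep replicate 2 (-0.90, adjusted p = 0.0334) but was -0.41 without DZNep replicate 1 (adjusted p = 0.209). Without shEZH2 replicate 1 the rise in shEZH2 kept its size but not its call (1.68, adjusted p = 0.0540). On the opposite strand JUNB overlaps HOOK2, an adaptor for microtubule transport, which was at 11 to 18 and did not pass in either comparison with Ctrl (log2 -0.49, adjusted p = 0.149, and -0.21, adjusted p = 0.613).

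JUN, the strongest activator of the JUN group, lies at chr1:58776845-58784048 on the minus strand as 1 exon. JUN was at 329 and 390 in Ctrl, 456 and 500 after DZNep and 382 and 385 in shEZH2. The shEZH2 samples lay within the range of Ctrl, and both DZNep samples lay above it. After DZNep the log2 difference was 0.33 ± 0.15 (SE, interval -0.02 to 0.68, adjusted p = 0.117), and in shEZH2 it was 0.05 ± 0.15 (interval -0.31 to 0.40, adjusted p = 0.863). The difference after DZNep passed with values as deposited (0.41, adjusted p = 0.0444). It also passed when only Ctrl and DZNep were fitted with same-numbered replicates as pairs (adjusted p = 0.00028), where 72.1% of all tested genes passed. With such pairs over all samples it did not pass (adjusted p = 0.1015).

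JUND, a JUN protein linked to slower growth and to protection from stress, was the one JUN gene whose highest values were in shEZH2. It lies at chr19:18279694-18281622 on the minus strand and also has 1 exon. JUND was at 37 and 46 in Ctrl, 53 and 42 after DZNep and 69 and 64 in shEZH2. The DZNep samples overlapped Ctrl, while both shEZH2 samples were above all others. In shEZH2 the log2 difference was 0.62 ± 0.22 (SE, interval 0.12 to 1.13, adjusted p = 0.114), and after DZNep it was 0.11 ± 0.22 (interval -0.40 to 0.62, adjusted p = 0.716). Between the treated groups the difference was 0.52 ± 0.22 in the direct comparison (adjusted p = 0.179). None of these passed in the main fit. With same-numbered replicates fitted as pairs over all samples, shEZH2 differed from Ctrl (adjusted p = 0.0123) and from DZNep (adjusted p = 0.0418). The difference of shEZH2 from Ctrl passed without DZNep replicate 1 (adjusted p = 0.0400) or replicate 2 (adjusted p = 0.0384), and the one from DZNep passed without DZNep replicate 1 (0.81, adjusted p = 0.0496) but was 0.22 without DZNep replicate 2 (adjusted p = 0.461). Without DZNep replicate 1 the DZNep value against Ctrl turned to -0.19 (adjusted p = 0.501).

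MAFF, a small MAF protein without an activation domain that pairs with FOS, NRF and BACH proteins, lies at chr22:38200767-38216507 on the plus strand. MAFF was at 50 and 43 in Ctrl, 113 and 111 after DZNep and 92 and 86 in shEZH2. No treated sample overlapped Ctrl. MAFF rose after DZNep by a log2 fold change of 1.17 ± 0.19 (SE, adjusted p = 0.00252), or 2.25-fold, and in shEZH2 by 0.87 ± 0.19 (SE, adjusted p = 0.0351), or 1.83-fold. The treated groups differed by -0.30 ± 0.19 (interval -0.75 to 0.15, adjusted p = 0.368). In shEZH2 the call was lost without Ctrl replicate 2 (0.69, adjusted p = 0.124), without shEZH2 replicate 1 (0.86, adjusted p = 0.306) and without shEZH2 replicate 2 (0.89, adjusted p = 0.277). MAFF overlaps PLA2G6, a phospholipase gene on the opposite strand listed at 2 to 5.

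**Figure D2:**
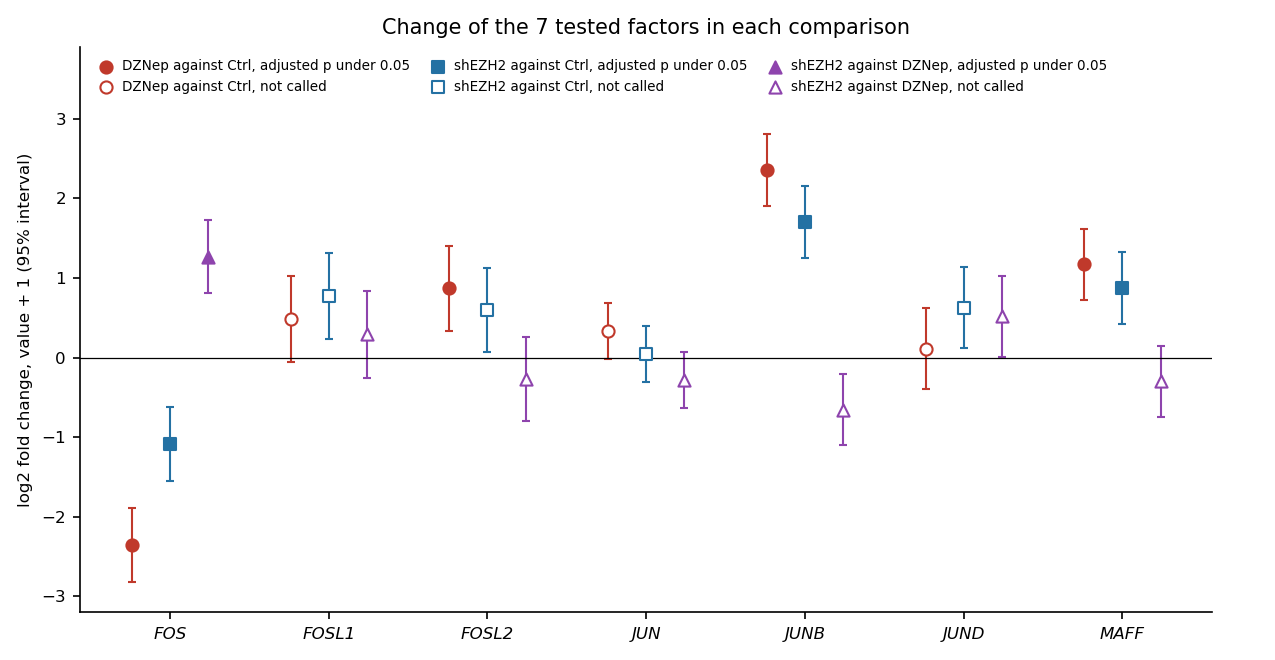
Log2 fold change on the value + 1 scale, with its 95% interval from limma, of the 7 tested factors in the 3 comparisons, filled where the adjusted p was under 0.05. FOS lies below 0 in both comparisons with Ctrl, JUNB and MAFF lie above 0 in both, and FOS alone is filled in the comparison of shEZH2 with DZNep.

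EGR1, a zinc finger factor of the immediate early response whose gene lies at chr5:138465479-138469303, was low in all samples. EGR1 was at 6 and 6 in Ctrl, 1 and 1 after DZNep and 5 and 3 in shEZH2. Both treated groups were below Ctrl, and the DZNep samples were below the shEZH2 samples. ATF3, a stress-induced factor at chr1:212565334-212620777 that can repress AP-1 promoters, was at 5 and 4 in Ctrl, 3 and 2 after DZNep and 4 and 4 in shEZH2. Its DZNep samples were below both Ctrl samples, and its shEZH2 samples overlapped them.

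When all 14930 genes were fitted without the filter, EGR1 fell by 1.86 on the log2 scale after DZNep (SE 0.25, adjusted p = 0.00165) and FOSB fell by 0.85 (SE 0.25, adjusted p = 0.0341), while ATF3 was at -0.72 ± 0.27 (adjusted p = 0.0747). In shEZH2 none of the 3 passed, with -0.56 for EGR1 (adjusted p = 0.213), -0.25 for FOSB (adjusted p = 0.577) and -0.18 for ATF3 (adjusted p = 0.730). EGR1 was also 1.30 higher in shEZH2 than after DZNep (SE 0.25, adjusted p = 0.0331). That fit called 35.4% of all genes in either direction after DZNep, 4.92% in shEZH2 and 5.47% between the treated groups. At such low values rounding is a large part of the measurement. With rounding error alone, the log2 ratio of group means of EGR1 after DZNep lies between -3.78 and -1.95, that of FOSB between -2.68 and -0.51 and that of ATF3 between -1.38 and -0.48.

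Counted over the 7 tested members, 3 were called higher and 1 lower after DZNep, where 21.7% of all tested genes were called higher and 20.6% lower. In shEZH2, 2 were called higher and 1 lower, against 3.61% and 4.38% of all tested genes. The count in shEZH2 changed with single samples left out, and so did the share of all tested genes called. Without shEZH2 replicate 1 or replicate 2, the log2 change in shEZH2 was 1.68 and 1.73 for JUNB, -0.98 and -1.19 for FOS and 0.86 and 0.89 for MAFF. Without Ctrl replicate 2 the values were 1.66, -1.13 and 0.69. Between the treated groups 1 member, FOS, was called higher in shEZH2 and 0 lower, against 4.86% and 4.06%. This count changed with single samples left out, and so did the share of all tested genes called. At an unadjusted limma p under 0.05, 2 members were higher and JUNB was lower in shEZH2 than after DZNep. The share of all tested genes at that unadjusted limit was not counted, here or for the lists below, so such counts have no background. All 4 treated samples were on 1 side of both Ctrl samples in 5 of the 7 tested members, above in FOSL1, FOSL2, JUNB and MAFF and below in FOS, an arrangement seen in 50.7% of tested genes. With the study's thresholds, a log2 change over 1 in size and an unadjusted p under 0.05, applied to the limma fit, 3 members passed after DZNep, 2 in shEZH2 and 1 between the treated groups, against 22.3%, 5.28% and 5.53% of tested genes. The comparisons with Ctrl share their Ctrl samples, so a like result in both is not independent.

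**Figure D3:**
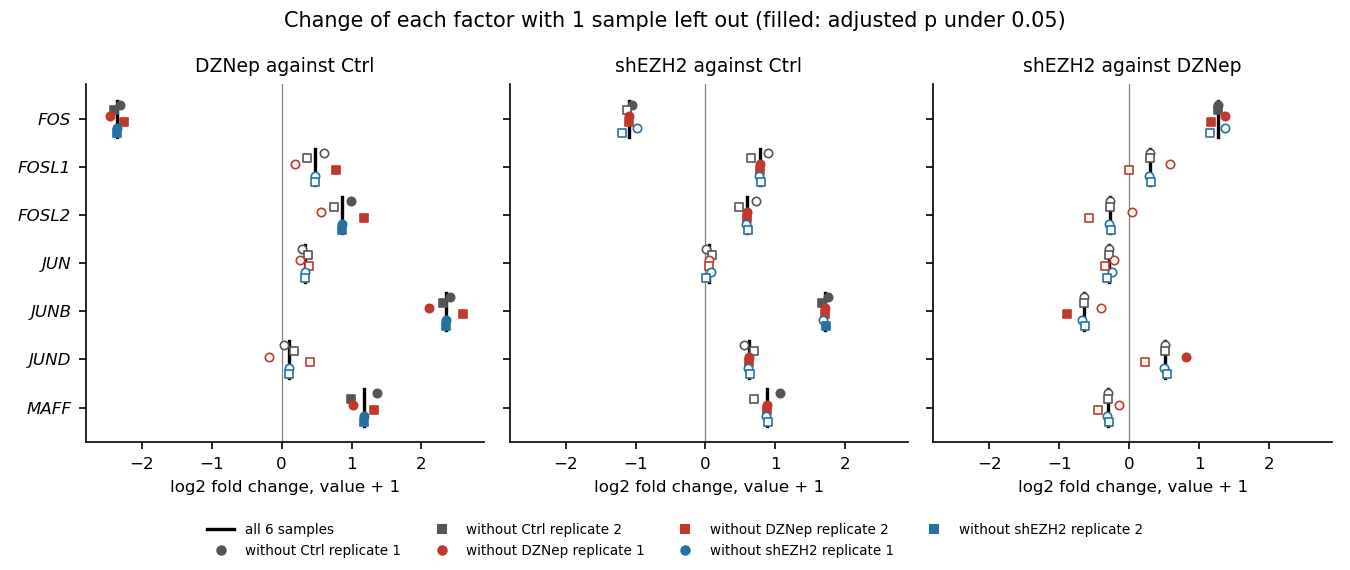
Log2 fold change on the value + 1 scale of the 7 tested factors in each comparison, from all 6 samples (line) and with each of the samples left out in turn (points, coloured by the group of the omitted sample, filled where the adjusted p was under 0.05). FOS, JUNB and MAFF after DZNep stay filled in every omission, and MAFF and FOS in shEZH2 lose their call without either shEZH2 sample.

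By distance between centred log2 profiles over the 6 samples, the genes nearest to FOS were DHRS4, COPG2 and ORAI3 (distances 0.106, 0.210 and 0.225). For JUNB they were ISG15, INF2 and STC2 (0.215, 0.282 and 0.321), for MAFF TMEM127, FAM193B and FSCN1 (0.0642, 0.0884 and 0.108) and for FOSL2 GGT7, FAM73B and CARD10 (0.0781, 0.116 and 0.122). Such likeness is common with 3 groups of 2 samples. The profile of FOS had a Pearson r over 0.95 with 755 tested genes (7.81%), that of JUNB with 641 (6.63%), that of MAFF with 788 (8.15%) and that of FOSL2 with 605 (6.26%).

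The other basic leucine zipper factors that can pair with AP-1 proteins were called in both directions after DZNep. Of 15 tested partners, 5 were called higher and 5 lower, against 21.7% and 20.6% of all tested genes. Their median change was 0.15 on the log2 scale, and that over all tested genes was 0.01. BACH1, a repressor of oxidative stress genes that binds with small MAF proteins such as MAFF, was at 34 and 39 in Ctrl, 106 and 146 after DZNep and 59 and 55 in shEZH2. BACH1 rose after DZNep by 1.66 ± 0.16 (SE, adjusted p = 0.000304), and in shEZH2 it was at 0.58 ± 0.16 (adjusted p = 0.0641). JDP2, which blocks JUN activity by pairing with it, was at 30 and 29 in Ctrl, 13 and 15 after DZNep and 25 and 24 in shEZH2, and fell by 1.11 after DZNep (adjusted p = 0.00246). CEBPD, an inflammatory leucine zipper factor, fell by 0.87 after DZNep (adjusted p = 0.0243) and was 1.26 higher in shEZH2 than after DZNep (adjusted p = 0.0233). In shEZH2, 2 partners were called higher and 0 lower, against 3.61% and 4.38% of all tested genes. They were MAFG (1.18, adjusted p = 0.0195), a small MAF protein like MAFF, and ATF4 (0.70, adjusted p = 0.0387), named after their values were seen. MAFG was at 7 and 9 in Ctrl, 23 and 21 after DZNep and 21 and 19 in shEZH2. It thus met the filter only through treated samples, and its rise is not independent of the filter. At an unadjusted p under 0.05, 6 were higher and 1 lower in shEZH2, with no share of all tested genes counted at that limit. The counts after DZNep and in shEZH2 changed with single samples left out, and so did the share of all tested genes called.

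Most of the other immediate early genes had a direction opposite to that of FOS. Of 26 tested, 22 were called higher and 1 lower after DZNep (median log2 fold change 1.28), against 21.7% and 20.6% of all tested genes. In shEZH2, 7 were called higher and 0 lower (median 0.62), against 3.61% and 4.38% of all tested genes, whose median was -0.01. IER3, an inhibitor of stress-induced cell death, was at 72 and 55 in Ctrl, 350 and 348 after DZNep and 169 and 166 in shEZH2, with log2 fold changes of 2.37 ± 0.21 (SE, adjusted p = 0.000213) and 1.35 ± 0.21 (SE, adjusted p = 0.0153). GADD45B, a stress sensor, was at 36 and 28, 149 and 152, and 85 and 75 in the same order. It rose by 2.13 (adjusted p = 0.000312) and 1.25 (adjusted p = 0.0177). CCN2, a matrix protein listed by its older symbol CTGF, was at 24 and 26, 90 and 106, and 50 and 36, and rose after DZNep by 1.84 (adjusted p = 0.000361), with 0.69 in shEZH2 (adjusted p = 0.0609). The gene called lower after DZNep was NFKBIZ, a nuclear regulator of NF-κB (-0.74, adjusted p = 0.0242), named after its value was seen. KLF2, KLF4, KLF10 and ARC, also named afterwards, met the filter only through treated samples, so their rises are not independent of it. They were at 4 and 4, 5 and 6, 6 and 4, and 5 and 4 in Ctrl. All count among the genes called higher after DZNep, and KLF2 and KLF10 also in shEZH2. EGR2, NR4A1, BTG2, ZFP36, ZFP36L2, NFIL3 and PLK3 were listed but did not meet the filter. The count in shEZH2 changed with single samples left out. So did the share of all tested genes called, which fell most without a shEZH2 sample, so the change is not particular to this list. At an unadjusted p under 0.05 the counts in shEZH2 were 18 higher and 1 lower, with no share of all tested genes counted at that limit.

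The RAS and MAP kinase pathways, which act upstream of these genes, had medians close to that of all tested genes. Of 21 tested, 5 were called higher and 3 lower after DZNep (median 0.03), and 1 was called higher and 0 lower in shEZH2 (median 0.03). In either direction this was 38.1% of the list after DZNep, against 42.3% of all tested genes, and 4.76% in shEZH2, against 7.99%. MAP2K2, which with MAP2K1 activates ERK, was at 312 and 250 in Ctrl, 116 and 101 after DZNep and 197 and 188 in shEZH2, and fell by 1.44 after DZNep (adjusted p = 0.00187). MAPK9, a JUN kinase, fell by 1.11 (adjusted p = 0.00181) and RPS6KA3, a kinase activated by ERK, by 1.28 (adjusted p = 0.00704). MAP2K1 was at -0.43 after DZNep (adjusted p = 0.0589) and -0.10 in shEZH2 (adjusted p = 0.707). Genes called higher after DZNep included the kinase ARAF (1.36, adjusted p = 0.00313), MAP2K3 (1.17, adjusted p = 0.00842), MAP3K1 (0.66, adjusted p = 0.0296) and the adaptor GRB2 (0.62, adjusted p = 0.0142). The gene called in shEZH2 was ARAF (1.18, adjusted p = 0.0261). ARAF, MAP2K3, MAP3K1, GRB2 and MAP2K1 were named after their values were seen. ARAF, at 10 and 7 in Ctrl, and MAP2K3, at 5 and 4, would not have met the filter without their treated samples. At an unadjusted p under 0.05, 4 were higher and 4 lower in shEZH2, with no share of all tested genes counted at that limit. With single samples left out, the counts of this list after DZNep and in shEZH2 changed, as did the share of all tested genes called.

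Feedback inhibitors of these kinases are induced by the pathways they restrain. Of 11 tested, 7 were called higher and 0 lower after DZNep (median 1.30), against 21.7% and 20.6% of all tested genes. In shEZH2, 3 were called higher and 0 lower (median 0.37), against 3.61% and 4.38%. DUSP5, a nuclear ERK phosphatase, was at 80 and 67 in Ctrl, 220 and 207 after DZNep and 136 and 115 in shEZH2, and rose after DZNep by 1.45 (adjusted p = 0.00133). ERRFI1, an inhibitor of the EGF receptor, was at 42 and 46, 156 and 192, and 61 and 57, rose after DZNep by 1.87 (adjusted p = 0.000156) and was 1.51 lower in shEZH2 than after DZNep (-1.51, adjusted p = 0.00333). The 3 genes called in shEZH2 were DUSP10 (1.09, adjusted p = 0.0185), DUSP6 (1.05, adjusted p = 0.0291) and SPRY4 (1.03, adjusted p = 0.0216), named after their values were seen. Their number changed with single samples left out, and so did the share of all tested genes called. At an unadjusted p under 0.05, 6 were higher and 0 lower in shEZH2, with no share of all tested genes counted at that limit. The 3 called genes had low values, where rounding matters. DUSP10 was at 4 and 5 in Ctrl and 11 and 11 in shEZH2, DUSP6 at 3 and 4 and at 9 and 8. SPRY4 was at 4 and 4 in Ctrl and 10 and 9 in shEZH2. DUSP6 and SPRY4 met the filter through their DZNep values, 12 and 19 and 11 and 13. DUSP10 met it only through treated samples, as did DUSP2, which was called higher after DZNep and named after its value was seen.

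Serum response factor, which binds CArG boxes, had higher values in the treated samples. Without them it would not have met the filter, so its rise is not independent of the filter. SRF was at 10 and 7 in Ctrl, 26 and 28 after DZNep and 20 and 20 in shEZH2, with log2 fold changes of 1.50 (adjusted p = 0.00211) and 1.11 (adjusted p = 0.0311). Its cofactor MRTFB, listed as MKL2, fell by 0.90 after DZNep (adjusted p = 0.0325), and the other 4 of 6 tested did not pass in either comparison. In either direction 33.3% of this list was called after DZNep, against 42.3% of all tested genes, and 16.7% in shEZH2, against 7.99%. SRF and MRTFB were named after their values were seen. The count after DZNep changed with single samples left out, and so did the share of all tested genes called. The call of SRF in shEZH2 was lost without Ctrl replicate 2 or either shEZH2 sample. Of 10 tested genes for turnover and cofactors of AP-1 proteins, 0 were called higher and 1 lower after DZNep, against 21.7% and 20.6% of all tested genes. The gene called lower was USP28, a deubiquitinase that stabilises JUN (-0.98, adjusted p = 0.00699). In shEZH2 limma called 0, and USP28 was the 1 gene with an unadjusted p under 0.05, a limit at which all tested genes were not counted. For turnover and cofactors, the count after DZNep also changed with single samples left out.

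Known AP-1 target genes that were called after DZNep were mostly higher. Of 17 tested, 9 were called higher and 1 lower (median 0.54), and in shEZH2 1 was called higher and 0 lower (median 0.31). In either direction this was 58.8% of the list after DZNep, against 42.3% of all tested genes, and 5.88% in shEZH2, against 7.99%. MMP1, the interstitial collagenase whose promoter holds a classical AP-1 site, was at 556 and 585 in Ctrl, 1870 and 2481 after DZNep and 568 and 461 in shEZH2. It rose after DZNep by 1.83 ± 0.17 (SE, adjusted p = 0.000215), was at -0.21 ± 0.17 in shEZH2 (adjusted p = 0.449) and differed between the treated groups (-2.04, adjusted p = 0.00206). PLAU, the urokinase protease, was at 55 and 39, 174 and 166, and 87 and 85, with 1.77 after DZNep (adjusted p = 0.00102) and 0.83 in shEZH2 (adjusted p = 0.0673). AXL, a receptor tyrosine kinase, was at 371 and 338, 57 and 55, and 226 and 219, and fell by 2.72 after DZNep (adjusted p = 7.18e-05), with -0.72 in shEZH2 (adjusted p = 0.0517). The target called higher in shEZH2 was IL6, an inflammatory cytokine (1.03, adjusted p = 0.0195), named after its value was seen. LIF, called higher after DZNep and also named afterwards, was at 7 and 5 in Ctrl and met the filter only through treated samples. At an unadjusted p under 0.05, 5 were higher and 1 lower in shEZH2, with no share of all tested genes counted at that limit. Leaving single samples out changed the count of targets in shEZH2 and the share of all tested genes called.

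**Figure D4:**
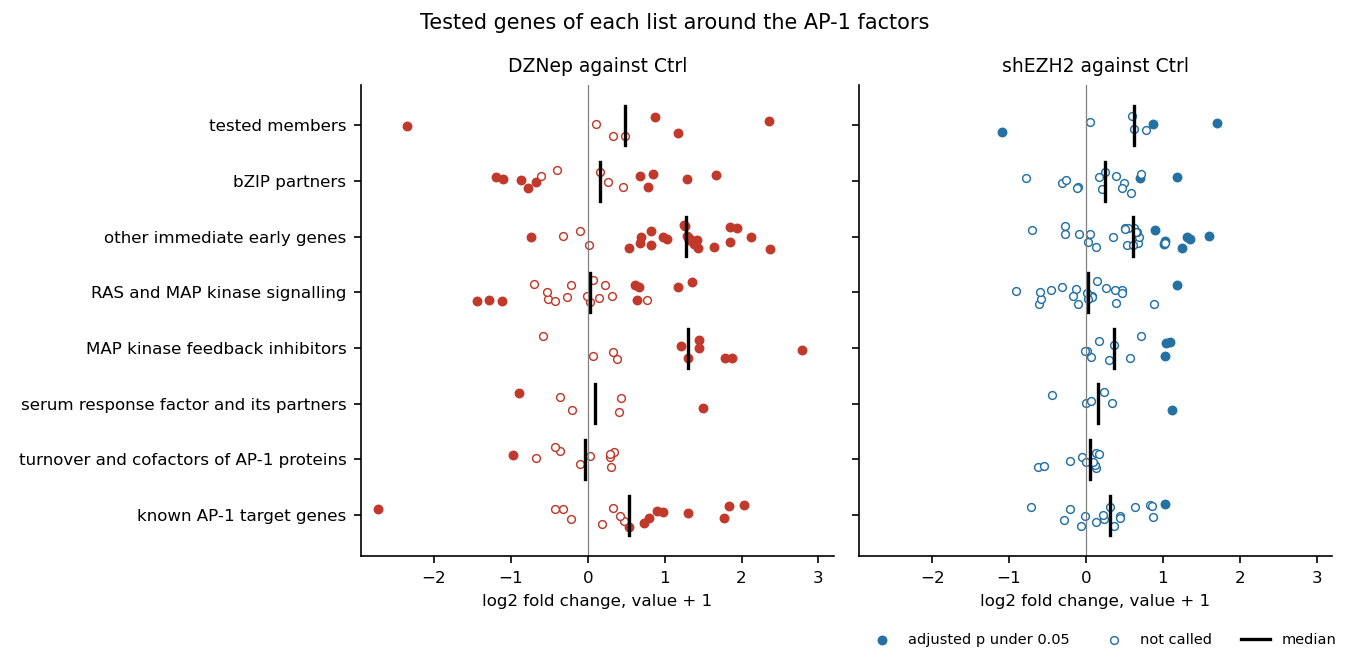
Log2 fold change on the value + 1 scale of the tested members and of the tested genes of 7 lists, after DZNep (left) and in shEZH2 (right), 1 point per gene, filled where the adjusted p was under 0.05, with the list's median as a line. The other immediate early genes have medians of 1.28 and 0.62, whereas the kinases have 0.03 in both, and FOS is the point farthest to the left in the top row.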

How the data were processed

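RNA from 2 samples in each of 3 groups was sequenced by the authors from ribosomal RNA-depleted stranded libraries. Per the study's methods and the labels, reads were trimmed with fastp, aligned with STAR to GRCh38 and quantified with RSEM. The deposited values are a score: the columns share a near-common total (999956 to 1000068) and were rounded by the authors, by a step not given in the sources used here. They are not counts, so the study's edgeR test was replaced by limma (version 3.58.1, R 4.3.3), fitted with a trend on log2(value + 1) to all 6 samples after TMM scaling. Testing required a minimum value of 10 in 2 or more samples, and adjusted p-values cover all 9671. The depth per sample is unknown.

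Of 142 list genes, 123 were listed by symbol, 5 by an older symbol and 14 not at all, and 106 were tested. Members and lists were chosen with earlier results of these data known. Named genes were all members, the nearest profiles of each called member (3 each) and, per list, up to 3 called genes with the largest change and a mean of at least 20. The alternatives were other scalings, filters and pseudocounts, a replicate block and samples left out. The procedure was tested on simulated data with equal and independent spread in all samples. It therefore does not cover the unequal spread of these groups or deviations shared between same-numbered samples. Promoters came from RefSeq. The values of 1 list gene are not reported here.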

Additional observations from a re-analysis of the deposited data

Results flagged for a closer look

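FOS differed between the treated groups under the same control. It was at 3 and 3 after DZNep and at 8 and 9 in shEZH2, against 18 and 19 in Ctrl, and the direct comparison gave a log2 difference (shEZH2 minus DZNep) of 1.27 (SE 0.20, adjusted p = 0.0123 by limma). Both shEZH2 samples lay above both DZNep samples. All of these values were below the filter's minimum of 10, which FOS met only in Ctrl. With rounding error alone, the log2 ratio of group means (shEZH2 to DZNep) lies between 1.22 and 1.88. The difference lost its call without either shEZH2 sample, with adjusted p of 0.100 and 0.179.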

How the results depend on the processing

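After DZNep, FOS, JUNB and MAFF kept their direction and call under every alternative that could be fitted, FOS being removed by the filter of 30. The number of members called after DZNep was 3 to 6, while 22.3% to 72.1% of all tested genes were called. In shEZH2, 3 members were called, against 7.99% of all tested genes. With only the 2 groups compared the count was 5, against 15.7%, and with the replicate block 6, against 28.1%. It also changed with the shEZH2 samples averaged or single samples left out, and so did the share. A lone sample is there assumed to vary like the other groups. Between the treated groups, 1 member was called, against 8.92% of all tested genes. The count was 2 with values as deposited (12.3%), with a filter of 1 (5.47%) and with no filter (5.47%). It was 0 with a filter of 30 (10.1%) and 3 with the replicate block (26.0%). Averaging the shEZH2 samples or leaving single samples out changed this count and the share too. The replicate numbers were not taken as a pairing, since the study states no block. Deviations of same-numbered samples correlated at 0.786 between Ctrl and DZNep, so the replicates of these groups differed alike. For the other pairs the correlations were -0.0245 and -0.0388. With same-numbered Ctrl and DZNep samples paired in a fit of these groups alone, 6 members were called after DZNep, against 4 in the main fit. That fit called 72.1% of all tested genes, against 42.3%. Whether JUN and FOSL1 pass after DZNep thus depends on the pairing. The sign turned with 1 sample left out for JUND after DZNep (-0.19 to 0.40), and between the treated groups for FOSL1 (-0.0024 to 0.59) and FOSL2 (-0.58 to 0.041). The cause was not tested.

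With single samples left out, the genes called after DZNep ranged from 6 to 12 for bZIP partners, 5 to 9 for RAS and MAP kinase signalling, 1 to 4 for serum response factor and its partners and 1 to 2 for turnover and cofactors. In shEZH2 they ranged from 0 to 5 for bZIP partners, 0 to 13 for other immediate early genes, 0 to 4 for RAS and MAP kinase signalling, 0 to 4 for feedback inhibitors, 0 to 1 for serum response factor and its partners and 0 to 6 for AP-1 targets. With values as deposited, the counts in shEZH2 were 4 for bZIP partners, 14 for other immediate early genes, 3 for RAS and MAP kinase signalling and 4 for AP-1 targets, and that for serum response factor and its partners after DZNep was 1. Median-ratio scaling gave 2 AP-1 targets in shEZH2. With 2 samples a group and rounded values, changes in FOSB, ATF3 and EGR1 are limited by rounding.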
